A study of Rattus norvegicus with 16 samples.

Results

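The class II antigen presentation genes measured here were RT1-Da, RT1-Db1, RT1-Ba, RT1-Bb, RT1-DMa, RT1-DMb, Cd74 and Ciita of the rat. They were taken as every probe set, the unit of measurement of the array, whose only gene symbol in the platform annotation was 1 of these 8 names. This gave 14 probe sets for 8 genes, out of 31042 probe sets on the array without controls and 14217 genes named by a single symbol. The tissue was the L4 and L5 dorsal root ganglia (DRG), which hold the cell bodies of sensory neurons with their satellite glia, Schwann cells and resident immune cells.

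All rats were Sprague-Dawley and all ganglia were taken 7 days after surgery. In spared nerve injury (SNI), a model of neuropathic pain, the common peroneal and tibial branches of the sciatic nerve were ligated and cut and the sural branch was left intact. In sham surgery the nerves were exposed but not injured. The adult rats were males of 2 months, and the young rats were operated at 10 days of age and collected at 17 days. Each age had 3 groups. Adult SNI, adult sham and adult contralateral, the uninjured side of SNI rats, had 3 arrays each. Young sham also had 3 arrays, and young SNI and young contralateral had 2 each. The RNA on an array came from a pool of animals, 3 rats and 6 DRG in adults and 4 rats and 8 DRG in the young, so the spread between arrays was a spread between pools and not between single animals. The question of the design was whether the response of the ganglion to the injury differed between adult rats, which develop neuropathic behaviour after SNI, and young rats, which do not.

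Class II molecules carry peptides taken up from outside the cell to the surface of macrophages, dendritic cells and B cells, where they are shown to helper T cells. The RT1-Da and RT1-Db1 chains pair into 1 class II molecule of the rat, and the RT1-Ba and RT1-Bb chains into another. Cd74, the invariant chain, holds the new molecule's groove closed on its way to the endosome, and the RT1-DMa and RT1-DMb chains form the helper that exchanges the last piece of Cd74 for a peptide. Ciita is the co-activator that switches these genes on together. In the ganglion, class II protein is known mainly from resident and recruited macrophages.

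The genes share short elements in front of their start, the X and Y boxes, on which the factors that recruit Ciita assemble. The stretches below show letters of these elements in the members where they were found. The sequences came from the RefSeq promoters of the rat build GRCr8, which cover 250 bases before the annotated start and 50 after it and were found for 6 of the 8 members. Each line runs 5′ to 3′ on the strand of the gene from 125 to 26 bases before the start. Capitals mark the letters ACNGATG, a part of the X box, and TGATTGG, the Y box with its inverted CCAAT. The positions were chr20:4515290-4515389 on the plus strand for RT1-Da, chr20:4560188-4560287 on the minus strand for RT1-Db1, chr20:4576932-4577031 on the plus strand for RT1-Ba, chr20:4604144-4604243 on the minus strand for RT1-Bb, and chr20:4712361-4712460 on the minus strand for RT1-DMa.
RT1-Da: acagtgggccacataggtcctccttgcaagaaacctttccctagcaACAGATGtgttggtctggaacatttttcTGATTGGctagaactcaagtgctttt
RT1-Db1: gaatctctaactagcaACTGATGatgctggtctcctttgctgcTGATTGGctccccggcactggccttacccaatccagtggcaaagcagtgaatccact
RT1-Ba: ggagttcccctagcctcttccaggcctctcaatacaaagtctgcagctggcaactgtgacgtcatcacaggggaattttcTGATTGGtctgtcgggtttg
RT1-Bb: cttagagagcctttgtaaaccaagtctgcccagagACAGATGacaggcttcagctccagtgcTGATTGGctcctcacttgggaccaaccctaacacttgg
RT1-DMa: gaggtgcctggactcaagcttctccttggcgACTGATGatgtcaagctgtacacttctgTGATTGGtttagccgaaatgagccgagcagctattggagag

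Both sets of letters, searched on both strands, lay on the strand of the gene in RT1-Da, RT1-Db1, RT1-Bb and RT1-DMa, and their starts were 27 or 28 bases apart in each. RT1-Ba held the Y box letters alone, and Cd74 held neither in its window. Only exact matches were sought, so a box that differs by a letter was missed, and absent letters do not mean an absent box. The letters were chosen after these windows had been read. Of 33469 rat promoters of the same length, 10.2% held the X box letters and 7.06% the Y box letters on either strand. The X letters followed by the Y letters with starts 20 to 40 bases apart were found in 8 promoters (0.0239%), of which 4 were those of the members. A match is a description of the letters and not of binding.

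Measured values were log2 GC-RMA intensities, in which a step of 1 is a doubling. Of the 14 member probe sets, 10 exceeded 4 in 2 arrays or more, 1 did so in 1 array and 3 stayed under 4 in every array. The array medians lay between 5.13 and 5.48, and no 2 arrays held the same values. One array stood apart: young SNI replicate 2 had a mean of 11.9 over 6 genes of central nervous tissue such as Mog and Aqp4, against 2.33 to 3.13 in the other 15 arrays, and a mean of 10.9 over 8 sensory neuron genes, against 12.1 or more elsewhere. Xist, expressed from the inactive X of females, was at 2.32 to 2.57 in the 9 adult arrays and at 9.77 to 12.05 in 5 of the 7 young arrays, so the sexes of the pools differed with age. Within the young groups Xist was at 11.87, 2.36 and 9.77 in sham, 2.35 and 11.51 in contralateral, and 11.84 and 12.05 in SNI, so the young comparisons were uneven in sex as well, and contralateral and SNI replicate 1 did not hold ganglia of the same rats. Differences were tested with limma in 1 fit of all 16 arrays, and a probe set was called where its p, adjusted by Benjamini-Hochberg over all 31042 probe sets of the comparison, was under 0.05.

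In the adult ganglion class II genes were higher after SNI than on the contralateral side. Probe sets of RT1-Da, RT1-Ba, RT1-DMa, RT1-DMb and Cd74 rose 4.66 to 15.5-fold. Of the 14 member probe sets 6 were called, from 5 genes, all of them higher, while 1.03% of all probe sets were called. This was in the fit without a replicate block. With age and replicate number as a block, 1 of 14 was called (RT1-Ba 1370822_at), beside 169 of all 31042 probe sets. This block joined all groups of an age, so sham arrays, which came from other rats, were tied to the numbers as well. It was thus not a paired test of adult contralateral and SNI alone. The adjusted p with and without the block is given below for the called members. The median log2 difference was 2.49 over the member probe sets and -0.04 over all probe sets. Every adult SNI array was above every adult contralateral array in 10 of the 14 member probe sets, which was so for 8.24% of all probe sets, and 9 of 14 had an unadjusted p under 0.05, as did 9.83% of all. In these bulk samples more cells of a type and more RNA per cell cannot be told apart.

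Cd74 was at 10.63, 10.25 and 10.90 in the adult sham arrays, 9.93, 10.17 and 9.93 in the adult contralateral arrays, and 12.06, 12.97 and 13.30 in the adult SNI arrays. The lowest SNI array was thus above the highest array of either control. The difference of SNI from contralateral was 2.77 ± 0.55 (SE) on the log2 scale, a 6.81-fold increase (adjusted p = 0.0393, and 0.0920 with the block).

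RT1-Da, the alpha chain of the D molecule, was at 11.03, 9.85 and 10.30 in adult sham, 9.04, 9.20 and 9.21 in adult contralateral, and 11.80, 12.55 and 12.84 in adult SNI. It was 9.49-fold higher in SNI than contralateral (3.25 ± 0.62, adjusted p = 0.0346, and 0.102 with the block). The study had itself picked this probe set on these same arrays, so its adult values are no independent evidence. Its partner RT1-Db1, by the probe set with the higher mean (1370383_s_at), was at 9.54, 8.52 and 8.94 in adult sham, 7.79, 7.99 and 7.39 in adult contralateral, and 9.58, 11.19 and 11.35 in adult SNI. The SNI arrays lay above both controls, although the lowest of them only just passed the highest sham array. Its suffix marks probes shared by several transcripts, and no probe set named RT1-Db2 was on the array, so the chains cannot be told apart by it. The difference from contralateral was 2.98 ± 0.65 and was not called (adjusted p = 0.0646, and 0.150 with the block).

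RT1-Ba, the alpha chain of the B molecule, had a pair of probe sets with signal. The brighter, 1377334_at, was at 9.53, 9.02 and 8.99 in adult sham, 8.33, 7.58 and 7.86 in adult contralateral, and 10.82, 11.13 and 12.01 in adult SNI. The other, 1370822_at, was at 6.27, 6.64 and 6.99 in adult sham, 5.71, 6.11 and 6.36 in adult contralateral, and 8.82, 10.53 and 10.69 in adult SNI. SNI exceeded contralateral by 3.40 ± 0.55 in the first (adjusted p = 0.0170, and 0.0829 with the block) and by 3.95 ± 0.68, or 15.5-fold, in the second (adjusted p = 0.0210, and 0.0496 with the block). Both probe sets of the gene were thus called in the same direction without the block, and the second with it. RT1-Bb, the beta chain, was at 5.05, 4.60 and 6.91 in adult sham, 5.69, 6.05 and 5.75 in adult contralateral, and 8.59, 10.05 and 10.09 in adult SNI by probe set 1371065_at. Its difference from contralateral, 3.75 ± 1.02, was of the same size but had a larger error and was not called (adjusted p = 0.153, and 0.286 with the block).

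The peptide exchange chains moved with the others. RT1-DMa was at 4.59, 4.63 and 4.82 in adult sham, 4.30, 4.43 and 4.36 in adult contralateral, and 6.07, 6.94 and 6.74 in adult SNI. RT1-DMb was at 6.10, 5.10 and 5.60 in adult sham, 4.55, 4.82 and 4.57 in adult contralateral, and 7.47, 7.89 and 8.61 in adult SNI. In both genes all SNI arrays were above all control arrays. RT1-DMa was 4.66-fold higher than contralateral (2.22 ± 0.40, adjusted p = 0.0278, and 0.109 with the block). RT1-DMb was 10.1-fold higher (3.34 ± 0.53, adjusted p = 0.0150, and 0.0646 with the block).

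Ciita was near the lower end of the scale. By probe set 1379381_at it was at 2.61, 2.68 and 2.66 in adult sham, 2.67, 2.66 and 2.71 in adult contralateral, and 3.27, 3.11 and 3.27 in adult SNI. The SNI arrays did not overlap the controls, but the difference from contralateral was 0.54 ± 0.31 and was not called (adjusted p = 0.676). Its other probe set, 1369214_a_at, stayed between 2.54 and 3.02 in all 16 arrays.

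**Figure D1:**
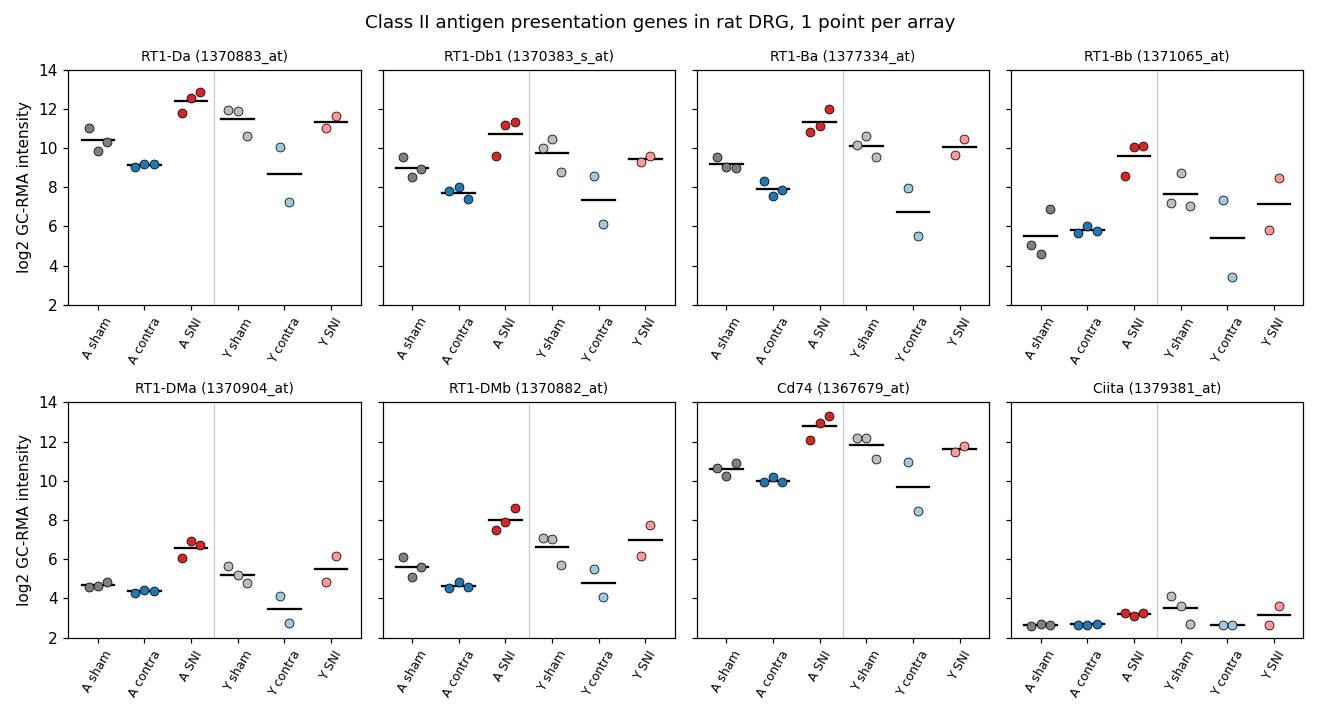
Log2 GC-RMA intensity of the 8 class II genes, each by its probe set with the highest mean, in the 6 groups (A, adult; Y, young; contra, contralateral). Each point is 1 array and each bar the group mean. In all 8 panels the 3 adult SNI points lie above the 6 adult control points, while the young SNI and young sham points overlap in each.

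The calls against the contralateral side rested on few arrays. Leaving out any 1 of adult contralateral replicates 1, 2 and 3 or of adult SNI replicates 2 and 3 left 0 of 14 called, in fits that called 57 to 139 of all probe sets, although in each such fit the differences of the 6 called probe sets stayed positive. Without young SNI replicate 2, the array with the central nervous tissue genes, 6 were called, beside 427 of all probe sets.

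Against adult sham, rats whose nerves were exposed and left whole, the 6 probe sets called against contralateral differed in the same direction but by less, and 0 of 14 were called by limma, beside 0.48% of all probe sets. With an unadjusted p under 0.05 there were 9 of 14, and 7.33% of all probe sets. In 10 of 14 every SNI array was above every sham array, as in 4.17% of all probe sets. The differences were 2.18 ± 0.55 for Cd74 (adjusted p = 0.171), 2.00 ± 0.62 for RT1-Da (0.318), 3.38 ± 0.68 for RT1-Ba 1370822_at (0.0662), 1.90 ± 0.40 for RT1-DMa (0.0859) and 2.39 ± 0.53 for RT1-DMb (0.103). RT1-Bb 1371065_at had the largest difference of the members from sham, 4.06 ± 1.02 or 16.6-fold, also not called (adjusted p = 0.173). The median over the member probe sets was 1.81, against -0.02 over all probe sets. The count depended on the fit. It was 7 of 14 when the adult arrays were fitted on their own, which called 244 of all probe sets against the 149 of the fit of all arrays. It was 3 without probe sets of low value, where 206 of 18540 were called, 1 with an intensity trend in the variance (162 of all) and 1 with array weights (206 of all). It was also 3 without either young contralateral array (129 of all) and 1 without adult SNI replicate 1 (288 of all) or either young SNI array (224 of all). Both comparisons use the same adult SNI arrays. Against the mean of both adult controls 6 of 14 were called, beside 1.28% of all probe sets, but 1 with the replicate block (306 of all) and 0 without adult SNI replicate 2 (141 of all) or 3 (194 of all).

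The adult controls also differed from each other in the levels of these genes, without a call. The 3 contralateral arrays were below the 3 sham arrays in 6 of the 14 member probe sets, as in 1.99% of all probe sets, with differences of -1.24 ± 0.62 in RT1-Da and -1.26 ± 0.55 in RT1-Ba 1377334_at. None of the 14 was called by limma, as 0% of all probe sets were, and 1 had an unadjusted p under 0.05, as did 2.01% of all.

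In young rats no class II gene was higher after SNI than after sham surgery beyond the spread of the arrays. Of the 14 member probe sets 0 were called by limma between young SNI and young sham, beside 0.0161% of all probe sets, and 0 had an unadjusted p under 0.05, as did 5.91% of all. The median difference was -0.10. In 0 of 14 did both SNI arrays lie above all sham arrays, as they did in 2.12% of all probe sets. Young sham was not low in Atf3, a gene of injured sensory neurons described below. It was at 9.49, 11.00 and 7.75 there, against 5.70 to 7.27 in the adult controls. The bearing of this on the comparison was not tested.

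Cd74 was at 12.19, 12.16 and 11.10 in young sham and at 11.46 and 11.79 in young SNI. The SNI arrays lay inside the sham range. The difference was -0.19 with a 95% interval of -1.53 to 1.15. The adult estimate against adult sham, 2.18, was outside this interval, but that estimate has an error of its own. The direct test of the adult against the young response, given below, did not call Cd74.

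RT1-Da was at 11.95, 11.87 and 10.64 in young sham and 11.01 and 11.65 in young SNI, and RT1-Ba 1377334_at at 10.18, 10.60 and 9.53 against 9.64 and 10.44. In both the SNI arrays were inside the sham range, with differences of -0.16 (interval -1.68 to 1.36) and -0.06 (interval -1.42 to 1.30). RT1-DMb was at 7.10, 7.02 and 5.72 in young sham and 6.17 and 7.76 in young SNI. RT1-DMa was at 5.67, 5.18 and 4.78 against 4.83 and 6.19. In these 2 genes young SNI replicate 2, the array with the central nervous tissue genes, was above all 3 sham arrays and replicate 1 was within their range. Without replicate 2 the RT1-DMb difference changed from 0.35 to -0.44, and without replicate 1 it was 1.15. With replicate 2 as the only young SNI array, 1 member was called against sham and 4 against contralateral, in a fit in which 3405 and 3341 of all probe sets were called.

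RT1-Db1 1370383_s_at was at 10.00, 10.45 and 8.79 in young sham and 9.29 and 9.60 in young SNI. RT1-Ba 1370822_at was at 8.80, 8.82 and 7.38 against 7.88 and 8.51, and RT1-Bb 1371065_at at 7.21, 8.74 and 7.04 against 5.80 and 8.46. None of these SNI arrays passed the highest sham array. Ciita 1379381_at, the co-activator, was at 4.15, 3.64 and 2.70 in young sham and 2.66 and 3.63 in young SNI, a difference of -0.35 with a 95% interval of -1.11 to 0.40. Its highest value of all 16 arrays was thus in a sham array, young sham replicate 1.

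Against young contralateral the same SNI arrays were higher in most members. Of the 14 member probe sets 13 had a positive difference, with a median of 1.99, and in 8 both SNI arrays were above both contralateral arrays, as in 5.86% of all probe sets. None was called by limma (0.00966% of all probe sets were), and 7 had an unadjusted p under 0.05, as did 5.94% of all. RT1-Ba 1377334_at was at 7.97 and 5.51 in young contralateral and differed by 3.30 ± 0.68 (adjusted p = 0.634). Cd74 was at 10.94 and 8.45 in young contralateral and differed by 1.93 ± 0.67 (adjusted p = 0.798). RT1-Da was at 10.05 and 7.27 there and differed by 2.67 ± 0.76. The contralateral arrays were thus far apart from each other, with replicate 2 the lower in each of these genes, and without it the differences were 0.69 for Cd74 and 1.28 for RT1-Da.

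Young contralateral was likewise below young sham. In 9 of 14 member probe sets both contralateral arrays were under all 3 sham arrays, as in 4.68% of all probe sets, and 8 had an unadjusted p under 0.05, as did 2.25% of all. None was called by limma, as 0% of all probe sets were. The difference in RT1-Ba 1377334_at was -3.36 ± 0.62, in RT1-Da -2.83 ± 0.69 and in Cd74 -2.12 ± 0.61. Without young contralateral replicate 2 the last became -0.88, and without young contralateral replicate 1 it became -3.37. Each of these fits left 1 young contralateral array, with no spread of its own. Against the mean of both young controls 0 of 14 were called, beside 0.0226% of all probe sets, and 3 had an unadjusted p under 0.05, as did 7.86% of all.

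**Figure D2:**
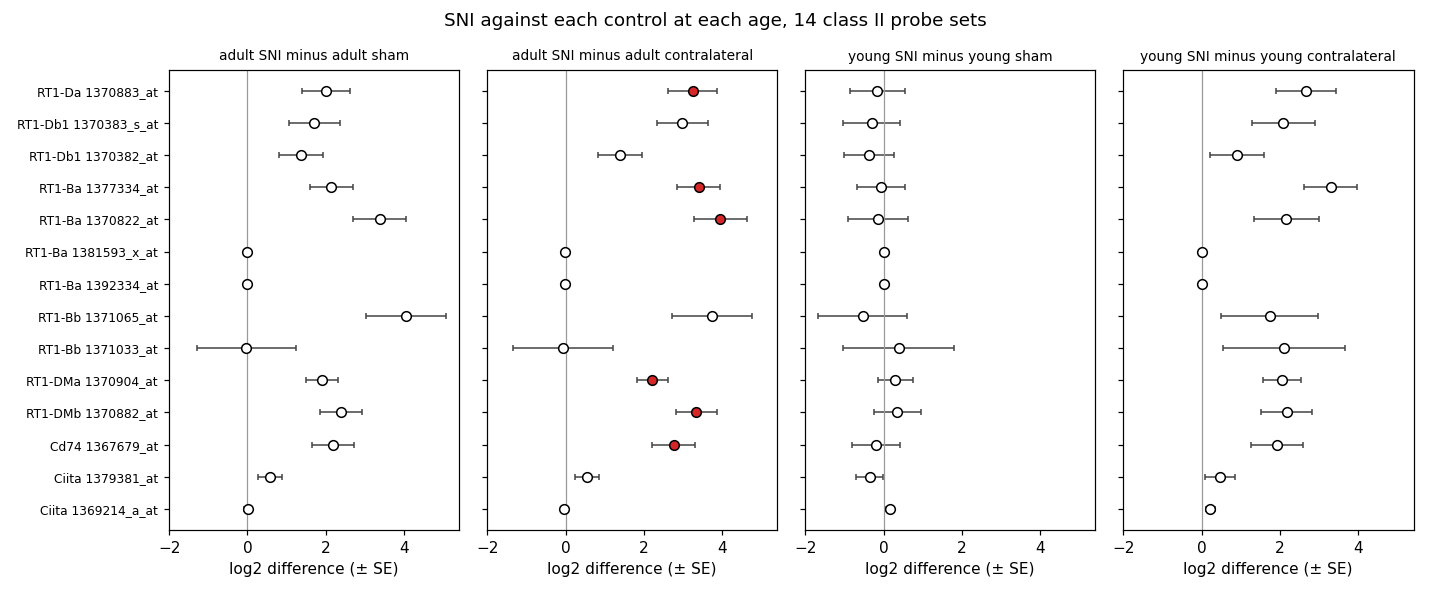
Log2 difference of SNI from each control at each age for the 14 member probe sets. Points are estimates from the limma fit of all 16 arrays, bars are 1 SE to each side, and filled points have an adjusted p under 0.05. Filled points, 6 in all, occur only in the comparison of adult SNI with adult contralateral, and the young SNI differences from sham scatter around 0.

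Whether the response itself differed with age was tested as the difference between the adult and the young response, each SNI minus the mean of its sham and contralateral groups. Of the 14 member probe sets 0 were called by limma, beside 0.0966% of all probe sets, and 10 of 14 differences were positive. An unadjusted p under 0.05 was found for 8% of all probe sets and for 3 members, RT1-Ba 1370822_at (2.66 ± 0.91, adjusted p = 0.538), RT1-Bb 1371065_at (3.30 ± 1.37, adjusted p = 0.602) and RT1-DMb (1.60 ± 0.71, adjusted p = 0.602). For Cd74 the difference was 1.61 with a 95% interval of -0.01 to 3.22, and for RT1-Da 1.37 with an interval of -0.46 to 3.20. A larger response in adults was therefore not shown for any member, and with 2 young SNI and 2 young contralateral arrays the intervals were wide. Between ages at rest or after injury 0 of 14 were called by limma in adult sham minus young sham (0.622% of all probe sets were called), in adult minus young controls (4.36%) and in adult SNI minus young SNI (2.64%). At an unadjusted p under 0.05 the counts were 3, 0 and 2 of 14, beside 12.3%, 17.8% and 19.4% of all probe sets. In adult sham minus young sham 1 of the 14 differences was positive, and the median was -0.97.

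The level over the groups can be given as the mean of the 6 genes whose own mean was at least 6 (RT1-Da, RT1-Db1, RT1-Ba, RT1-Bb, RT1-DMb and Cd74). It was 10.8 ± 0.67 (SD, n = 3) in adult SNI, 9.57 ± 0.69 (n = 3) in young sham, 9.42 ± 0.75 (n = 2) in young SNI, 8.38 ± 0.43 (n = 3) in adult sham, 7.55 ± 0.09 (n = 3) in adult contralateral and 7.11 ± 1.83 (n = 2) in young contralateral. Adult SNI and young sham overlapped, since the lowest adult SNI array was at 10.05 and the highest young sham array at 10.14. Young SNI, at 8.90 and 9.95, lay within the range of young sham, whose lowest array was at 8.80. Adult sham, from 7.89 to 8.65, lay below both and did not overlap adult contralateral, from 7.45 to 7.64. Young contralateral, at 8.40 and 5.81, spanned the range of adult contralateral. Over the 16 arrays the 15 pairs of these 6 genes had Pearson r from 0.824 to 0.978, and from 0.743 to 0.944 after the group means had been taken off, so arrays of 1 group that were low in 1 class II gene were low in the others. These arrays share their groups, and a pool is shared by all genes of an array.

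Where a gene had several probe sets, they did not always give the same picture. RT1-Ba 1381593_x_at and 1392334_at stayed under 2 in every array, and neither was called in any comparison. RT1-Db1 1370382_at was at 3.81, 3.75 and 3.08 in adult sham, 3.31, 3.62 and 3.65 in adult contralateral, and 4.00, 5.45 and 5.28 in adult SNI. It ran in the same direction as the brighter probe set, with a smaller difference from contralateral (1.38 ± 0.57, adjusted p = 0.420). RT1-Bb 1371033_at was between 2.29 and 2.51 in 14 arrays, at 7.64 in young sham replicate 1 and at 6.60 in young SNI replicate 1. Its partner 1371065_at did not stand out in those arrays, where it was at 7.21 and 5.80. The values of RT1-Bb therefore depended on the probe set. In every adult array 1371033_at was near the lower end of the scale. Its adult SNI differences, -0.03 against sham and -0.07 against contralateral, thus do not bear on those of 1371065_at.

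**Figure D3:**
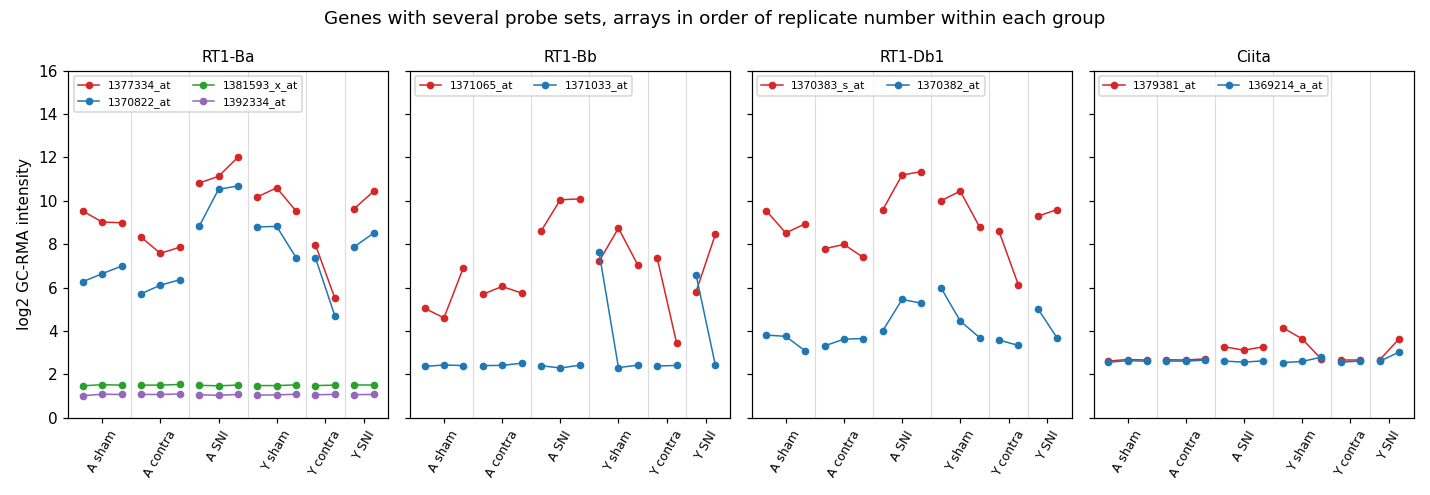
Log2 GC-RMA intensity of every probe set of the 4 genes that have more than 1, with arrays in order of replicate number within each group (A, adult; Y, young; contra, contralateral) and lines joining arrays of a group. RT1-Bb 1371033_at leaves its low level in only 2 arrays, and RT1-Ba 1381593_x_at and 1392334_at do so in none.

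Other genes of the pathway were taken from lists. Of the factors that bind the X and Y boxes, Rfx5, Rfxap, Rfxank, Nfya, Nfyb, Nfyc and Creb1, 0 of 7 were called by limma in adult SNI against sham or contralateral, with median differences of -0.02 and 0.10. Nfyb had the smallest p against contralateral (0.44 ± 0.13, adjusted p = 0.179), and 1 of the 7 was under an unadjusted 0.05 there. Of the interferon gamma pathway, which induces Ciita in many cells, 1 of 6 measured genes was called against adult contralateral and 0 against adult sham. Jak2, a kinase of the interferon gamma receptor, was at 6.85, 7.16 and 7.45 in adult sham, 6.64, 6.97 and 6.46 in adult contralateral and 7.83, 8.36 and 8.26 in adult SNI, an increase over contralateral of 1.46 ± 0.29 (adjusted p = 0.0404, and 0.0441 with the block). Its difference from sham was 1.00 ± 0.29 (adjusted p = 0.280). Jak2 also serves many other cytokine receptors. From contralateral, Ifngr2, a receptor chain, differed by 0.67 ± 0.15 (adjusted p = 0.0663) and Irf1, a transcription factor, by 1.02 ± 0.31 (0.222). From sham, Ifngr2 differed by 0.53 ± 0.15 (0.249) and Jak1, the partner kinase of Jak2, by 0.34 ± 0.10 (0.300). Ifng itself, the cytokine, was between 2.19 and 2.38 in all 16 arrays.

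Of the endosomal enzymes that cut antigen and Cd74, 0 of 6 were called against either adult control, and 6 of 6 had a positive difference. Ifi30, the lysosomal thiol reductase, was closest, with 1.59 ± 0.33 against contralateral (adjusted p = 0.0509), followed by Ctss, the protease that removes Cd74 from class II, with 2.11 ± 0.55 (adjusted p = 0.134). Of the co-stimulation and turnover list 0 of 4 were called. Marchf1, a ubiquitin ligase that removes class II from the surface, was at 3.84, 3.84 and 3.81 in adult sham, 3.72, 3.70 and 3.90 in adult contralateral, and 5.82, 5.34 and 3.89 in adult SNI. It was higher in SNI replicates 1 and 2 than in every adult control array, with differences of 1.19 ± 0.56 from sham (adjusted p = 0.719) and 1.24 ± 0.56 from contralateral (adjusted p = 0.502). Cd80, Cd86 and Cd40, the co-stimulatory molecules, stayed between 1.68 and 2.57 in every array. Of the class I comparators B2m, Tap1, Tap2, Tapbp and RT1-CE5, which serve the presentation of peptides from inside the cell, 0 of 5 were called in any SNI comparison within an age. Their median difference in adult SNI was 0.16 against contralateral and -0.35 against sham, beside 2.49 and 1.81 for the member probe sets. In young SNI 0 genes of these lists were called against either control, beside 0.0161% of all probe sets for sham and 0.00966% for contralateral. None of the 5 other class II genes sought (RT1-DOa, RT1-DOb, RT1-Db2, RT1-Ha and RT1-Hb) had a probe set of its own symbol.

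Macrophages are the main class II cells of the ganglion, and some of their markers were also higher in adult SNI. Of 12 macrophage markers 6 were called in adult SNI against contralateral, all higher: Cd68, Csf1r, Mrc1, Adgre1, Fcgr1a and Lyz2, by 1.89 ± 0.29 (Lyz2) to 2.94 ± 0.43 (Fcgr1a). With the replicate block 2 of these 6 were called, Cd68 (adjusted p = 0.0384) and Lyz2 (adjusted p = 0.0318). Against adult sham 0 of 12 were called and 12 of 12 differences were positive, with a median of 1.20. The mean of the 12 was 6.91 to 7.39 in adult SNI, 5.77 to 6.43 in adult sham and 5.39 to 5.54 in adult contralateral. In young rats it was 5.67 to 6.35 in sham, 4.96 and 5.65 in contralateral, and 6.08 and 6.62 in SNI. Of the 12, 0 were called by limma against either control, beside 0.0161% of all probe sets for sham and 0.00966% for contralateral. Against young contralateral every difference was positive. Aif1, Csf1r, Adgre1, Fcgr1a, Ptprc, Lyz2 and C1qa had an unadjusted p under 0.05 there, as did 5.94% of all probe sets. Against young sham no marker did, beside 5.91% of all. Itgam, Cx3cr1 and Cd163, which also mark macrophages, were near the lower end of the scale. They were at 2.54 to 3.03, 2.03 to 2.34 and 2.24 to 2.97 over the 16 arrays. Cd68 was dim as well, at 1.70 to 3.24 in the adult controls and 3.49 to 5.05 in adult SNI. The part of macrophage number in the class II values was not tested.

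For the other cells that present antigen most markers were near the lower end of the scale. The 3 measured B cell markers, Cd79b, Ms4a1 and Cr2, were between 1.69 and 3.28 in all arrays. Of the dendritic cell list 4 of 8 were measured and 0 were called, while Flt3, at 6.53 to 6.69 in adult SNI, differed by -0.71 ± 0.23 from adult sham (adjusted p = 0.391) and by -0.44 ± 0.23 from adult contralateral (adjusted p = 0.619). Itgax was at 3.46 and 3.96 in adult SNI replicates 1 and 2 and between 2.21 and 2.39 in the other 14 arrays. Of 7 T cell markers 0 were called against adult sham or contralateral, and Cd3d stayed between 2.04 and 2.16. Cd4, which rat macrophages carry as well as helper T cells, was at 2.59, 4.12 and 2.93 in adult SNI and between 2.01 and 2.10 elsewhere. Against the mean of both adult controls it was called without the block (adjusted p = 0.0474) and not with it (0.104). Of 8 sensory neuron, 5 satellite glia and 5 Schwann cell genes 0 were called by limma in any comparison of SNI with a control.

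**Figure D4:**
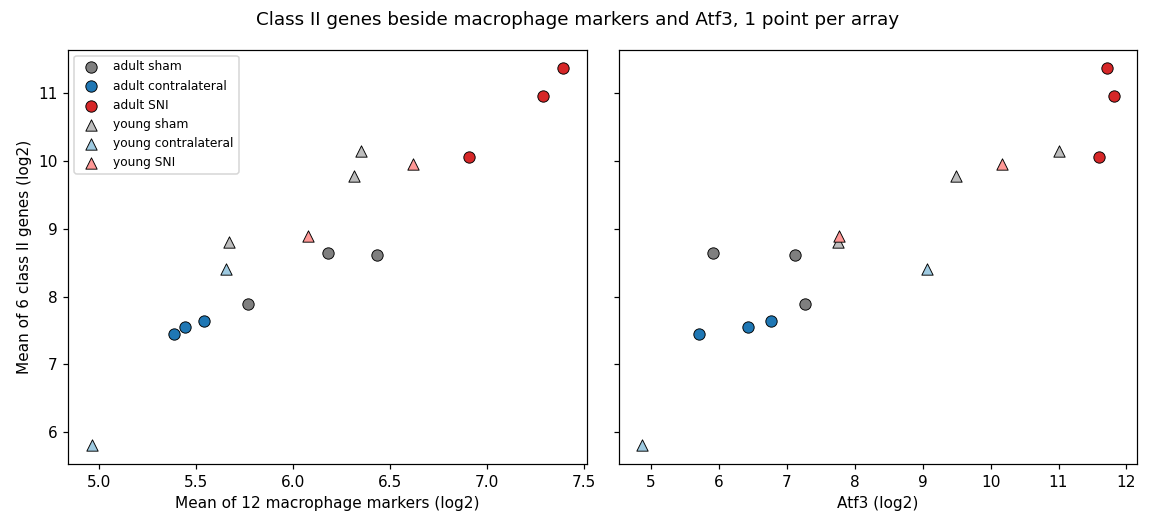
Mean log2 intensity of 6 class II genes (vertical) against the mean of 12 macrophage markers (left) and the log2 intensity of Atf3 (right), 1 point per array, with circles for adult and triangles for young groups. The 3 adult SNI arrays have the highest macrophage marker means and the highest Atf3, 1 of them is just below the highest young sham array in class II, and young contralateral replicate 2 is lowest on both axes of both panels.

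The 10 genes whose pattern over the 16 arrays was most like the mean of the 6 class II genes were taken from 8823 other genes with a mean of at least 6. They were C1qc (Pearson r 0.969, Spearman rho 0.941), Clec10a (0.960, 0.962), C1qb (0.950, 0.941), Csf1r (0.949, 0.926), C1qa (0.937, 0.900), Cybb (0.933, 0.879), Flrt3 (0.924, 0.935), Atf3 (0.919, 0.921), Pltp (0.912, 0.924) and Kif22 (0.912, 0.950). The first 6 are expressed by macrophages in many tissues. With the group means taken off, their r was 0.793 (Pltp) to 0.971 (C1qc), and without the 2 arrays farthest from the median, young contralateral replicate 2 and adult SNI replicate 3, it was 0.864 (Cybb) to 0.960 (Kif22). The groups form clusters and the genes were ranked on this measure, so the values are a description.

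C1qc, a chain of the complement starter C1q, was at 8.16, 7.34 and 8.47 in adult sham, 6.21, 6.86 and 6.39 in adult contralateral and 8.85, 10.16 and 10.41 in adult SNI. It differed by 3.32 ± 0.68 from contralateral (adjusted p = 0.0477, and 0.128 with the block) and by 1.82 ± 0.68 from sham (adjusted p = 0.499). In the young it was at 8.69, 8.98 and 7.36 in sham and 7.59 and 9.05 in SNI, so sham and SNI overlapped there as they did in class II. Atf3, a transcription factor that injured sensory neurons switch on, was between 5.70 and 7.27 in the 6 adult control arrays and between 11.60 and 11.81 in adult SNI. It differed by 5.41 ± 1.05 from contralateral (adjusted p = 0.0374, and 0.117 with the block) and by 4.94 ± 1.05 from sham (adjusted p = 0.0868). Of the 10 genes 8 were called against adult contralateral without the block and 2, Flrt3 and Kif22, with it. Against adult sham Flrt3 and Kif22 were called without the block and 0 genes with it. All 10 were picked for their likeness to class II in these same arrays. Their differences and calls thus follow in part from that choice and are no separate evidence. In young sham Atf3 was at 9.49, 11.00 and 7.75, in young contralateral at 9.06 and 4.87, and in young SNI at 7.77 and 10.17. The young sham arrays thus carried Atf3 above the adult controls, and so did young contralateral replicate 1, whose class II mean was 8.40. In the class II mean the young SNI arrays lay within the range of these sham arrays. A link between Atf3 and class II was not tested.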

How the data were processed

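RNA of L4/L5 DRG pools was hybridised by the authors to Affymetrix whole-genome rat arrays. The deposited values are log2 GC-RMA intensities with 2 decimals made by the authors with BioConductor (versions not given in the sources used here). GC-RMA pulls low signals to a floor, so differences of dim genes such as Ciita are compressed. Of 18 arrays the authors had removed 1 young contralateral and 1 young SNI array as outliers, and the 16 that remained were used. The 57 control probe sets were left out of 31099. Names came from the platform annotation: 20826 probe sets had 1 symbol, 436 several and 9780 none. The symbols were checked against RefSeq of GRCr8 by gene ID, and 0 had changed.

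Group means of 6 groups were fitted without a block with limma 3.58.1 (R 4.3.3) to all 31042 probe sets, with 10 residual and 1.24 prior degrees of freedom, Benjamini-Hochberg adjustment within each comparison and a threshold of 0.05. This code was tested on simulated data. A gene with several probe sets was represented by the one with the highest mean. Members, gene lists and rules were chosen with earlier results of these data known. All members were named, with at most 3 genes of each pathway list by smallest p in a comparison and the 10 genes of most similar pattern. Ifng, Cd80, Cd86, Cd40 and single marker genes were named outside this rule, after their values were seen. The authors' own fold changes were not used. Replicate numbers were checked by the correlation of residuals. In adult contralateral and adult SNI it was 0.449, 0.445 and 0.362 for numbers 1, 2 and 3. These were taken as pairs, the contralateral side being that of SNI rats, although the labels do not state the pairing. Over the members alone these pairs gave 0.353, 0.629 and -0.221. Adult sham and adult SNI, from different rats, gave -0.0412, 0.132 and 0.200. The block was age and replicate number, and in comparisons across ages the replicate number alone. The block was kept as an alternative because the study's methods have none, and for genes other than members it was added after the data were seen. Alternatives were a filter (log2 above 4 in at least 2 arrays, 18540 kept), an intensity trend, array weights, quantile normalization, each age alone, the replicate block, another probe set, and each array left out. The number of arrays limits the precision. Promoters were searched with Python 3.11.15.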

Additional observations from a re-analysis of the deposited data

How the results depend on the processing

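The number of arrays sets what could be called, and pooled RNA hides the spread between animals. Member counts moved in adult SNI. Against sham the count of 0 became 3 with the filter on low values, 1 with the intensity trend, 1 with array weights and 7 with separate fits of the ages. With the replicate block 6 became 1 against contralateral and 1 against both controls. Against contralateral, where 321 of all were called, 6 became 7 with the filter (423 of 18540) and 7 with the trend (328 of all). The count became 7 with the weights (827 of all) and 9 with separate ages (375 of all). Against both controls, where 398 of all were called, 6 became 8 with the filter (487 of 18540). It became 7 with the trend (402 of all) and 8 with separate ages (477 of all). Every other member count was the same under the block, the filter, the trend, the weights, quantile normalization and separate ages. In the young groups the block joined pools that were not all pairs, since contralateral and SNI replicate 1 differed in Xist. Across ages it joined pools by number alone. Separate ages could not be fitted for comparisons across ages. With single arrays left out, counts ranged from 0 to 3 in adult SNI against sham, 0 to 7 against contralateral and 0 to 8 against both controls, from 0 to 1, 0 to 4 and 0 to 2 in young SNI against sham, contralateral and both controls, from 0 to 1 in the difference of responses and in adult against young SNI, and from 0 to 2 in young contralateral against sham. In the other 3 comparisons they stayed at 0. Calls in young SNI appeared without young SNI replicate 1 or young contralateral replicate 1. Those in young contralateral against sham appeared without young contralateral replicate 1. In these fits the remaining array took its spread from the other groups.

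Among 368 values of single probe sets under other settings 339 kept direction and side of the threshold, 5 lost a call, 16 gained one and 8 reversed. In young SNI minus young sham quantile normalization gave RT1-Da 0.0197 and RT1-Ba 1377334_at 0.0654, and the block gave RT1-Bb 1371033_at -0.47 and RT1-DMb -0.10. RT1-Bb by 1371033_at in place of 1371065_at was at 0.38 in young SNI against sham and -1.29 in the difference of responses. In adult SNI it was at -0.0267 and -0.07 against sham and contralateral, from adult arrays near the lower end of the scale. Among 960 values with 1 array left out, 883 kept direction and side of the threshold, 36 lost a call, 18 gained one and 23 reversed. In young SNI minus young sham the ranges were -0.58 to 0.16 for RT1-Da, -0.78 to 0.05 for RT1-Db1 1370383_s_at, -1.05 to 0.31 for RT1-Db1 1370382_at, -0.46 to 0.34 for RT1-Ba 1377334_at, -0.62 to 0.18 for RT1-Ba 1370822_at, -1.86 to 0.80 for RT1-Bb 1371065_at, -1.71 to 2.48 for RT1-Bb 1371033_at, -0.38 to 0.98 for RT1-DMa and -0.44 to 1.15 for RT1-DMb. RT1-Bb 1371033_at ranged from -0.0517 to 0.0133 in adult SNI minus sham, -3.39 to 0.80 in the difference of responses and -2.64 to 0.03 in young contralateral minus sham, and RT1-Bb 1371065_at from -0.22 to 3.69 in young SNI minus contralateral. The causes of these shifts were not tested.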
